A study of Mus musculus with 4 samples.

Results

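The 6 genes described here are Nppa, Nppb, Myh6, Myh7, Acta1 and Ankrd1, a set often called the fetal gene program of the heart. They were chosen by symbol from the 21885 genes counted, and all 6 were found and passed the low-count filter of every test below. The files identify them as ENSMUSG00000041616 (Nppa), ENSMUSG00000029019 (Nppb), ENSMUSG00000040752 (Myh6), ENSMUSG00000053093 (Myh7), ENSMUSG00000031972 (Acta1) and ENSMUSG00000024803 (Ankrd1). Their UMIs (unique molecular identifiers, each standing for 1 captured RNA molecule) were counted with Visium, an array of barcoded spots under a tissue section, where a spot can cover several cells or parts of cells. The sections came from hearts of Collagen1a1-GFP+ mice, which report collagen-producing cells, aged 8 to 12 weeks. There was 1 section of a control heart that had no infarction, 1 from a heart 3 days post infarction (3 dpi) and 2 from hearts at 5 dpi, named here section F and section M after their labels, female and male. The infarction was made by permanently tying the left anterior descending coronary artery, and every heart gave 1 section. With 1 control heart, comparisons with the control are given without a test, and intervals cover counting error only. Tests of zones pool the 3 infarcted sections, and a test of 3 dpi against 5 dpi has 1 heart on the 3 dpi side.

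Apart from Myh6, these genes are active together in the fetal ventricle. After birth most of them are turned down in the working ventricle. They are known to be switched on again when the adult heart is overloaded or injured. Nppa encodes atrial natriuretic peptide and Nppb brain natriuretic peptide, hormones that cardiomyocytes secrete when stretched and that act on the kidney and on vessels through the receptor Npr1. Myh6 encodes the fast alpha myosin heavy chain, the main one of the adult mouse ventricle, and Myh7 the slow beta chain that dominates before birth. Acta1 encodes skeletal alpha-actin, an actin of skeletal muscle and of the fetal heart, where adult cardiomyocytes mainly use Actc1. Ankrd1 encodes cardiac ankyrin repeat protein, which binds titin in the sarcomere and also enters the nucleus.

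Nppb and Nppa are next to each other on chromosome 4, and Myh6 and Myh7 on chromosome 14, with no other protein-coding gene between them in RefSeq. Acta1 lies on chromosome 8 and Ankrd1 on chromosome 19. The 250 bases before an annotated transcript start are shown for each gene because the 6 are usually discussed as one program, and short motifs of factors tied to it can be looked for there. The sequences are from RefSeq on GRCm38.p6 and read 5′ to 3′ on the gene's strand. Capitals mark motifs that were searched on both strands. They are the M-CAT element CATTCC, which reads GGAATG where it lies on the other strand, and the GATA site in the form TGATAA or in the form AGATAA, which reads TTATCT on the other strand. They are also the NKE element CAAGTG of the NK2 factors, the TATA box spelled TATAAA, the CArG box of serum response factor and the MEF2 box. No 2 matches overlapped. The windows are chr4:148000472-148000721, plus strand for Nppa; chr4:147985650-147985899, plus strand for Nppb; chr14:54966608-54966857, minus strand for Myh6; chr14:54994627-54994876, minus strand for Myh7; chr8:123894776-123895025, minus strand for Acta1; and chr19:36119845-36120094, minus strand for Ankrd1.
Nppa: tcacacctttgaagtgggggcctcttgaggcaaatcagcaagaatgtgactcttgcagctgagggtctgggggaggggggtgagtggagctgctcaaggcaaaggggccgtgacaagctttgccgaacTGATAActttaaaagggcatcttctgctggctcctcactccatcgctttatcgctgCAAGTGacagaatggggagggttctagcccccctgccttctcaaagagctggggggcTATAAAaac
Nppb: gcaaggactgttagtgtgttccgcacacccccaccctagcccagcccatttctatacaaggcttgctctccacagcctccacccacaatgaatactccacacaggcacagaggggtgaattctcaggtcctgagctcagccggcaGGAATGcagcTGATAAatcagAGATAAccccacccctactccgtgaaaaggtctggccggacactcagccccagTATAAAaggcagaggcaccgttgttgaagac
Myh6: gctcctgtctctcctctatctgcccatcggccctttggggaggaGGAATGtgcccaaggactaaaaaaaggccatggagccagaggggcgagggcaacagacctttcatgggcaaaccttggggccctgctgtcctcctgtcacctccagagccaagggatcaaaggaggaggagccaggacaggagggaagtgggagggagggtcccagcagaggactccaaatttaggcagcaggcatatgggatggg
Myh7: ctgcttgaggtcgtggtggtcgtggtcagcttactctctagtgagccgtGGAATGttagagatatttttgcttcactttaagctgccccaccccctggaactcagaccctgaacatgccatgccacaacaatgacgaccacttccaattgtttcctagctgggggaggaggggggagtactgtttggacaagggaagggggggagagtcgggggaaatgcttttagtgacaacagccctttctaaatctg
Acta1: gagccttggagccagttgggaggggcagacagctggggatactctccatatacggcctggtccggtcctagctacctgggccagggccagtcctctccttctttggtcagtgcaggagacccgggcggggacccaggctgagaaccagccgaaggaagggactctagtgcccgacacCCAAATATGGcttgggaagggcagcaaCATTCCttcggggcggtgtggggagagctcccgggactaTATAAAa
Ankrd1: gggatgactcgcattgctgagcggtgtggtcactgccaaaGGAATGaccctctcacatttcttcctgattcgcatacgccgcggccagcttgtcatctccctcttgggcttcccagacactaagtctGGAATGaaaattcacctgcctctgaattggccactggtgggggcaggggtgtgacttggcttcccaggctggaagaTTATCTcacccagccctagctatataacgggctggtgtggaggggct
No motif was found in all 6 windows. CATTCC was in 5, all but Nppa, and in 12.6% of the 32851 windows of the same length in the table. TGATAA was in the windows of Nppa and Nppb and in 7.94% of all, AGATAA in those of Nppb and Ankrd1 and in 9.99% of all. TATAAA was in the windows of Nppa, Nppb and Acta1 and in 12.4% of all. CAAGTG stood in that of Nppa alone among the 6 (11.6% of all) and the CArG box in that of Acta1 alone (1.47% of all). The MEF2 box was in none of the 6 and in 2.92% of all windows. Myh7 has a second annotated start, and the window before that one held none of these letters. Such a match is a description of the sequence and not a measured binding site.

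Between 1146 and 1741 spots per section were kept, with 6250183 to 11010109 UMIs in all and a median of 4968 to 6935 UMIs per spot. Mitochondrially encoded genes took 40.1% of the UMIs in the control section and 13.3% to 21.4% in the infarcted ones, so CPM are given as UMIs per 1000000 UMIs of the other genes. UMIs of 4 Y-linked genes were 0 in the control and 3 dpi sections, 704 in section F and 1 in section M, which goes against both labels. The names F and M therefore stand for labels alone, and no comparison of sexes is made. The matrix of section M also holds 623 spots not marked as tissue, which were left out. The tissue carried the ventricular marker Myl2, with 23701 to 58483 UMIs per section. Tnnt2, a gene of the cardiac sarcomere, had 23487 to 37355. Of 5 atrial genes Sln had 0 in all sections. Myl7 had 0, 1, 37 and 5, and Myl4 had 27, 44, 88 and 118 in the control, at 3 dpi, in F and in M. Of 7 skeletal muscle genes the myosins Myh1, Myh2 and Myh4 had at most 1 UMI in a section. In the same order of sections, the troponins Tnnt3 had 0, 158, 150 and 87 UMIs and Tnni2 15, 104, 119 and 79. Mylpf had 14, 14, 17 and 17 and Actn3 0, 1, 5 and 2. These are UMIs not scaled to the depth of the sections.

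Distance to the infarct was measured on the array. A spot was called low when 11 cardiomyocyte genes (Tnnt2, Tnni3, Actc1, Myl2, Myl3, Pln, Mb, Ckm, Tcap, Ryr2 and Ttn) took less than 0.5 times the share they took at the 90th percentile of the section. Patches of 10 or more touching low spots made the infarct zone (IZ), spots 1 or 2 steps away border zone 2 (BZ2), those 3 or 4 steps away border zone 1 (BZ1), and the other spots the remote zone (RZ), except that 17, 39 and 10 low spots in smaller patches (3 dpi, F and M) were put in no zone. The infarct zone held 906, 1055 and 675 spots at 3 dpi, in F and in M, and border zone 2 held 294, 142 and 102. Since the infarct zone is defined by few cardiomyocyte UMIs, a lower CPM of a gene made by cardiomyocytes is largely set by that rule. In such spots, fewer cardiomyocytes and less RNA in each cannot be told apart. For this reason levels are also given per 1000 UMIs of the 11 genes, called marker UMIs below.

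Nppa was the member that differed most between the control and the infarcted hearts. Over whole sections it had 390.2 CPM in the control, 11010 at 3 dpi, 8265 in F and 9906 in M. All 3 infarcted sections were thus 21.2-fold to 28.2-fold above the control, with no overlap of their counting intervals. In the remote zone Nppa was also higher, with 3791, 7656 and 6044 CPM, or 9.72-fold, 19.6-fold and 15.5-fold above the whole control section. The map of Nppa per spot shows how far from the infarct zone this reached.

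**Figure D1:**
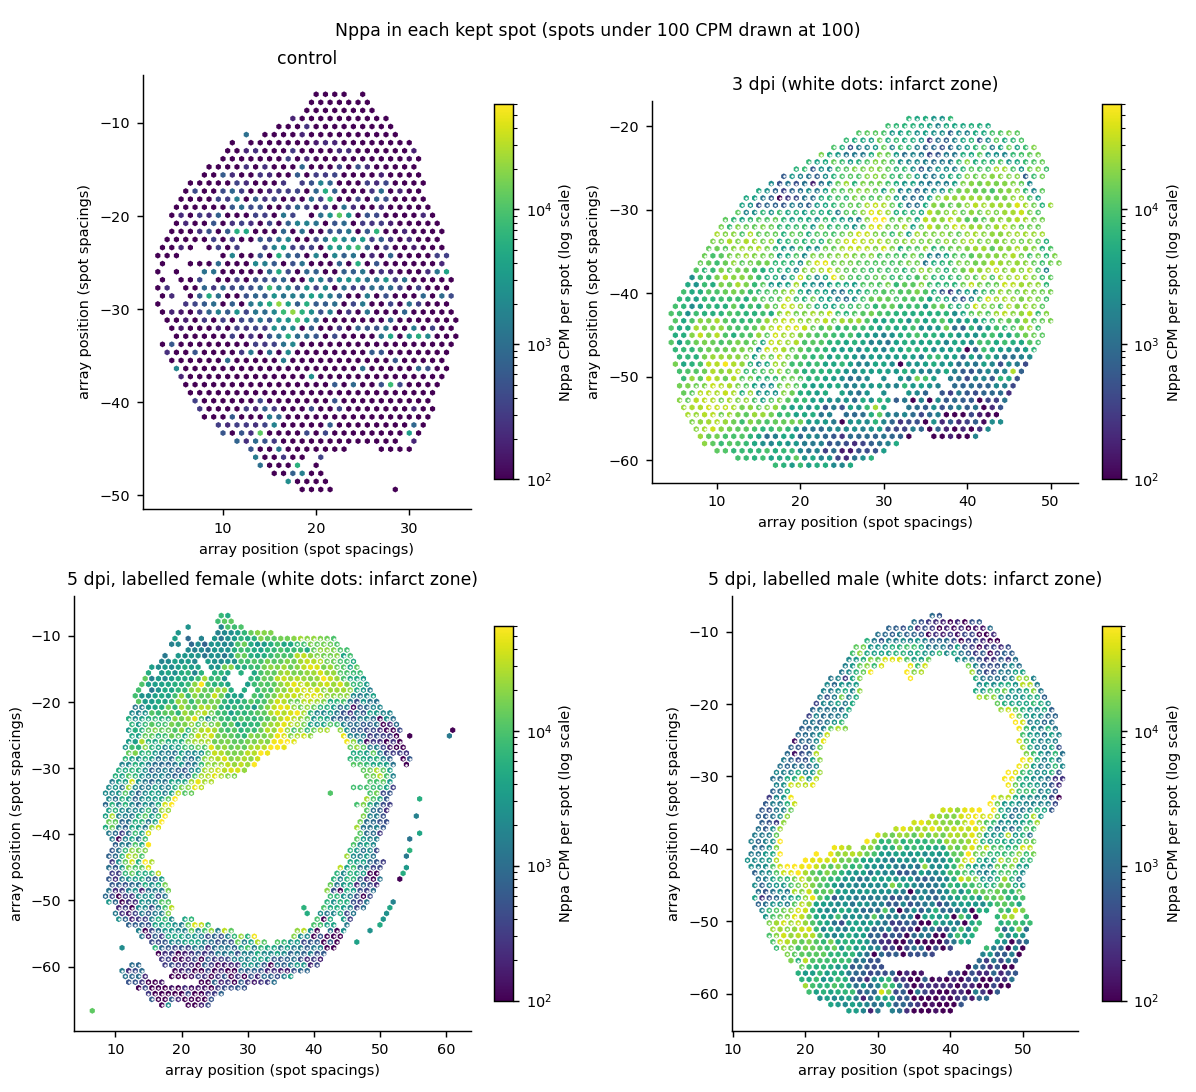
Nppa CPM in each kept spot of the 4 sections, on a log colour scale, with both axes in spot spacings of the array and white dots on the spots of the infarct zone. The control section is mostly at the lowest colour (390.2 CPM over the section). In the 3 infarcted sections many bright spots lie along the border of the infarct zone. At 5 dpi bright spots also lie around areas not marked as tissue that the section encloses. At 3 dpi a spot at the 90th percentile had 25583 CPM in the infarct zone and 26449 in the 2 steps around it.

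Nppb did not go the same way. The control section had 225.5 CPM, above F with 88.2 and M with 125.2 and below the 300.4 CPM of the 3 dpi section. In the remote zone its 232.8, 227.7 and 196.9 CPM were 1.03-fold, 1.01-fold and 0.873-fold of the control. The number of Nppb UMIs per 100 Nppa UMIs was 57.8 in the control section, 2.73 at 3 dpi, and 1.07 and 1.26 at 5 dpi. Per marker UMI, whole-section Nppb was 2.99-fold, 1.98-fold and 1.496-fold of the control, so its direction at 5 dpi depends on the scale.

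The 2 myosins differed from the control to unequal extents. Myh6 had 12440 CPM in the control and 12171, 12021 and 9509 in the remote zones of the 3 dpi section, F and M. These were 0.978-fold, 0.966-fold and 0.764-fold of the control. Myh7 had 58.8 CPM in the control and 313.7, 634.6 and 337.8 in the same remote zones, 5.34-fold, 10.8-fold and 5.75-fold above it. In the remote zone Myh6 was thus close to or below the control while Myh7, still a small share of the pair, was severalfold higher.

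Acta1 had 288.6 CPM in the control and 1075, 1627 and 1793 in the remote zones, in the same order of sections, 3.73-fold to 6.21-fold above the control. Ankrd1 had 438.0 CPM in the control and 1708, 3321 and 2523 in the remote zones, 3.90-fold to 7.58-fold above it. In all, the remote zones of all 3 infarcted sections were at least 2-fold above the control for 4 members, Nppa, Myh7, Acta1 and Ankrd1, and for 3.99% of the 2904 genes at 50 CPM or more in one of these sums. No member was at least 2-fold below it in all 3, as were 0.172% of these genes. Per marker UMI the remote zones were above the control by 10.0-fold to 23.4-fold for Nppa, 5.50-fold to 12.9-fold for Myh7, 3.84-fold to 7.65-fold for Acta1 and 4.02-fold to 9.04-fold for Ankrd1. On the same scale the Nppb values were 1.064-fold to 1.203-fold and the Myh6 values 0.941-fold to 1.15-fold of the control. These comparisons rest on 1 control heart.

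**Figure D2:**
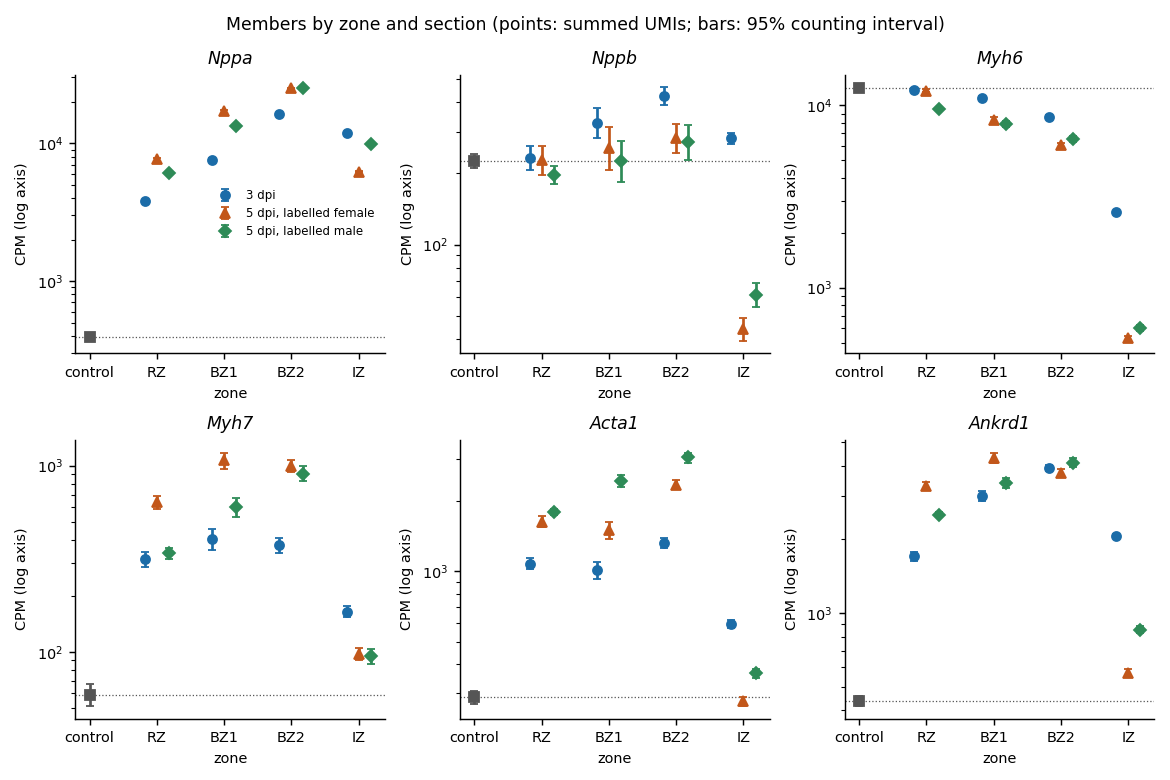
CPM (log axis) of the 6 genes in the control section and in the 4 zones of the 3 infarcted sections, 1 point per sum of spots, with bars for 95% counting intervals and a dotted line at the control. Nppa is highest in border zone 2 of every infarcted section, while Myh6 is lower from the remote to the infarct zone.

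From the remote zone to border zone 2, Nppa rose in every infarcted section. It had 3791 CPM in the remote zone, 7569 in border zone 1 and 16186 in border zone 2 at 3 dpi. In F the values were 7656, 17022 and 24966, and in M 6044, 13259 and 25056. Border zone 2 was thus 4.27-fold, 3.26-fold and 4.15-fold above the remote zone of its own section, and no value of one zone overlapped with those of the other. In edgeR's quasi-likelihood test on the 12 zone sums with the section as a block, the log2 fold change was 1.78 ± 0.25 (SE, 3 sections) with a Benjamini-Hochberg adjusted p of 0.000135. Nppa was the only member called higher where 4.29% of 9461 genes were called higher, and no member was called lower, as 5.11% of the genes were. With no scaling beyond library size, the split of calls was 758 higher and 294 lower in place of 406 and 483, because the scaling shifts every log2 fold change by -0.10 in border zone 1, -0.16 in border zone 2 and -0.42 in the infarct zone. Replicates here are sections of single hearts. The test shares its estimate of spread over all 12 zone sums and over genes. Its p-values thus do not rest on the spread between these 3 sections alone.

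The other 5 members did not pass that test in border zone 2. Myh6 had 8672, 6061 and 6539 CPM there, each below its remote zone, with a log2 fold change of -0.85 ± 0.28 (SE, edgeR adjusted p = 0.0590). Myh7 had 374.3, 1002 and 904.9 CPM, each above its remote zone, with a log2 fold change of 0.67 ± 0.29 (edgeR adjusted p = 0.173). Ankrd1 with 3913, 3740 and 4113 CPM (log2 fold change 0.47 ± 0.30, edgeR adjusted p = 0.405) and Acta1 with 1319, 2343 and 3059 CPM (0.40 ± 0.27, edgeR adjusted p = 0.435) were also above the remote zone in all 3 sections. Nppb had 424.6, 280.7 and 271.7 CPM, 1.82-fold, 1.23-fold and 1.38-fold of the remote zone (log2 fold change 0.35 ± 0.32, edgeR adjusted p = 0.590). Without the 3 dpi section, Myh6 (-0.91, edgeR adjusted p = 6.09e-07), Myh7 (0.90, edgeR adjusted p = 4.49e-05) and Acta1 (0.51, edgeR adjusted p = 0.00518) passed it. The zone rule decided some of these calls too, with all 3 sections kept. Myh7 passed with the low limit at 0.6667 times the 90th percentile (edgeR adjusted p = 0.00792), with all low spots in the infarct zone (0.0128) and with the remote zone from step 7 (0.03185), and Myh6 with the limit at 0.3333 (0.00809), with border zone 2 of 1 step (0.02745) and with the remote zone from step 7 (0.0311). Without the low-count filter both passed (edgeR adjusted p = 0.000275 for Myh7 and 2.69e-09 for Myh6), as did Ankrd1 (0.0158). Set against the control section, border zone 2 was 41.5-fold, 64.0-fold and 64.2-fold higher for Nppa, 6.37-fold, 17.0-fold and 15.4-fold for Myh7, and 8.93-fold, 8.54-fold and 9.39-fold for Ankrd1, with 1 control heart behind each value. In border zone 1 no member was called, with 0.0528% of the genes called higher. The Nppa values there were 1.997-fold, 2.22-fold and 2.19-fold of the remote zone (log2 fold change 1.002 ± 0.24, edgeR adjusted p = 0.126), and the call was gained without the 3 dpi section (1.03, edgeR adjusted p = 2.97e-05) or with DESeq2 (0.99, adjusted p = 0.0196). It was also gained without the low-count filter (edgeR adjusted p = 1.155e-09), with the limit at 0.3333 (0.0265), with border zone 2 of 1 step (0.0283) and with the remote zone from step 7 (0.00464). Myh6 and Myh7 passed in border zone 1 without the 3 dpi section (-0.52 and 0.69, edgeR adjusted p = 0.0182 for both) and without the low-count filter (0.0278 and 0.0477).

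Per marker UMI 5 members rose in border zone 2. Nppa had 44.0, 103 and 83.7 UMIs per 1000 marker UMIs in the remote zones at 3 dpi, in F and in M, and 274, 527 and 480 in border zone 2, against 4.39 in the control. Myh7 had 3.64, 8.51 and 4.68 in the remote zones and 6.33, 21.1 and 17.3 in border zone 2, against 0.662 in the control. Ankrd1 had 19.8, 44.6 and 34.9 against 66.2, 78.9 and 78.8, with 4.93 in the control. In each section border zone 2 was above the remote zone for all 3 genes, although for Myh7 the border zone at 3 dpi was below the remote zone of F. Acta1 had 12.5, 21.8 and 24.8 in the remote zones and 22.3, 49.4 and 58.6 in border zone 2, against 3.25 in the control. Nppb had 2.70, 3.05 and 2.73 against 7.19, 5.92 and 5.20, with 2.54 in the control. For these 2 genes too, each section was higher in border zone 2, although for Acta1 the border zone at 3 dpi was below the remote zone of M. The log2 fold changes in edgeR's quasi-likelihood test were 2.51 ± 0.24 for Nppa (adjusted p = 1.77e-22), 1.35 ± 0.28 for Myh7 (adjusted p = 0.000102), 1.23 ± 0.25 for Ankrd1 (adjusted p = 6.84e-05), 1.09 ± 0.26 for Acta1 (adjusted p = 0.000818) and 1.09 ± 0.30 for Nppb (adjusted p = 0.00425). On this scale 24.2% of 9450 genes were called higher, with a median log2 fold change of 0.74 over all genes. The marker genes took a smaller share of the UMIs in border zone 2, which raises other genes on this scale. What lowered that share was not tested. This fit borrows nearly all of its estimate of spread from other genes, so its p-values are smaller than 3 sections alone could give.

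Myh6 was level with the marker genes. It had 140.0 UMIs per 1000 marker UMIs in the control, 141, 161 and 132 in the remote zones and 147, 128 and 125 in border zone 2 (log2 fold change -0.12 ± 0.23, edgeR adjusted p = 0.654). In border zone 1 only Nppa was called on this scale (log2 fold change 1.37 ± 0.23, edgeR adjusted p = 1.93e-05), where 0.169% of the genes were called higher, and that call was lost without section M (1.36, edgeR adjusted p = 0.999). Myh7 and Ankrd1 were called there without the 3 dpi section (edgeR adjusted p = 0.000296 and 0.0189) and with the remote zone from step 7 (0.00191 and 0.00888), and Myh7 with border zone 2 of 1 step (0.0495). Without section M, the calls in border zone 2 of Nppb (edgeR adjusted p = 0.236), Myh7 (0.246), Acta1 (0.2425) and Ankrd1 (0.143) were lost and that of Nppa was kept. Without section F that of Nppb was lost (edgeR adjusted p = 0.0800).

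Other cells moved with these zones. The summed CPM of 5 fibroblast markers was 1536 to 2332 in the remote zones and 3363 to 5845 in border zone 2, and that of 5 macrophage markers 924.2 to 1266 and 1379 to 2043. The 11 cardiomyocyte genes took 7.22% to 8.62% of the UMIs in the remote zones and 4.74% to 5.91% in border zone 2. The part of these shifts in the members' changes was not tested, other than by the scale per marker UMI. The 5 atrial genes together had 7.22 CPM in the control, 3.02 to 9.15 in the remote zones, 7.98 to 15.3 in border zone 2 and 6.07 to 17.55 in the infarct zone. The 7 skeletal muscle genes together had 8.02 CPM in the control, 9.95 to 15.3 in the remote zones, 19.1 to 41.7 in border zone 2 and 29.7 to 43.1 in the infarct zone, with 3 or 4 of the 7 detected in each of these sums. Their part in the members' values was not tested either.

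**Figure D3:**
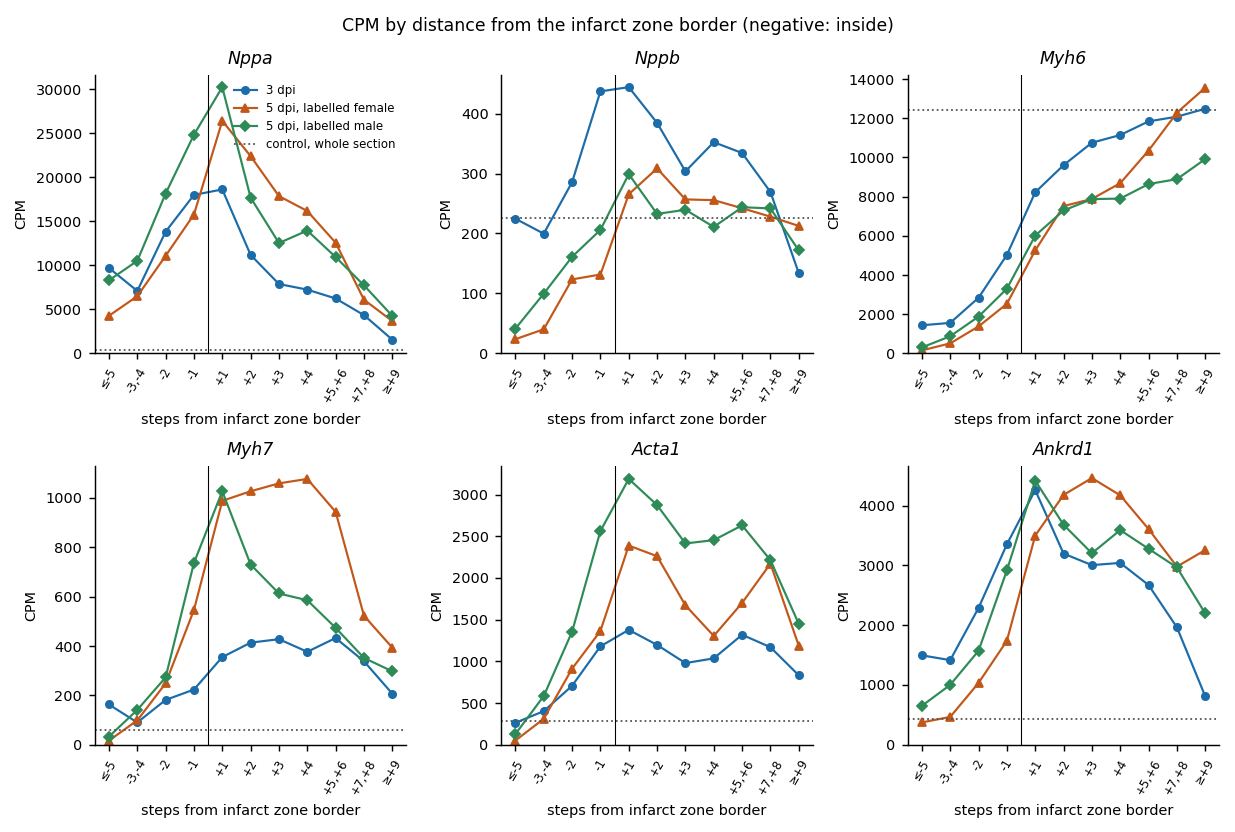
CPM of each member by steps from the border of the infarct zone (negative steps inside, vertical line at the border), with 1 line per infarcted section and a dotted line at the control. Nppa peaks 1 step outside the infarct zone in all 3 sections, at 18609, 26390 and 30214 CPM.

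Step by step, Nppa peaked on the first ring of spots outside the infarct zone. It had 18609 CPM there at 3 dpi and 26390 and 30214 in F and M. At 9 or more steps it had 1563, 3678 and 4260 CPM, its lowest values outside the infarct zone. Even these were above the 390.2 CPM of the control. Acta1 had its highest CPM on the same ring in all 3 sections, at 1378, 2389 and 3188. The highest Nppb, Myh7 and Ankrd1 values were not all on one ring. Ankrd1 was highest 1 step out at 3 dpi and in M (4259 and 4417 CPM) and 3 steps out in F (4460 CPM). Myh7 was highest at 5 or 6 steps at 3 dpi (432.4 CPM), at 4 steps in F (1077 CPM) and at 1 step in M (1027 CPM). Nppb was highest at 1 step at 3 dpi (444.0 CPM) and in M (299.0 CPM), and at 2 steps in F (308.5 CPM). Myh6 was the reverse, with its highest CPM at 9 or more steps in every section, at 12482, 13558 and 9915.

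Inside the infarct zone 5 members fell over the 3 sections together and Nppa did not pass the test. The zone is cut on few cardiomyocyte UMIs, so a fall of a cardiomyocyte gene there is largely set by that rule. The p-values of these falls are therefore no separate evidence about the members. The log2 fold changes against the remote zone were -3.89 ± 0.31 for Myh6, -2.20 ± 0.28 for Acta1, -2.13 ± 0.30 for Myh7, -1.59 ± 0.32 for Ankrd1 and -1.53 ± 0.32 for Nppb, with edgeR adjusted p-values of 2.10e-09, 1.53e-06, 4.67e-06, 0.000287 and 0.000402. There 27.3% of the genes were called lower and 26.8% higher, or 1636 lower and 4606 higher in place of 2584 and 2532 with no scaling beyond library size. At 3 dpi Ankrd1 and Nppb were both 1.21-fold of the remote zone, and without that section their log2 fold changes were -2.41 and -2.39. With the low limit at 0.6667 that of Ankrd1 was -0.72 and its call was lost (edgeR adjusted p = 0.108), and that of Nppb was -0.81 (edgeR adjusted p = 0.03615). For Nppa the infarct zone had 11843, 6198 and 9911 CPM, 3.12-fold, 0.810-fold and 1.64-fold of the remote zone (log2 fold change 0.35 ± 0.24, edgeR adjusted p = 0.234). Its direction there was not settled, at -0.15 (edgeR adjusted p = 0.394) without the 3 dpi section and 0.77 (edgeR adjusted p = 0.0235) without F, and at -0.57 (edgeR adjusted p = 0.02455) and 1.497 (edgeR adjusted p = 3.58e-05) with the low limit at 0.3333 and 0.6667. These are spots in which the marker genes took 1.86%, 0.603% and 0.768% of the UMIs. Per 1000 marker UMIs, Nppa had 638, 1029 and 1291 UMIs there, so that at 5 dpi Nppa had more UMIs than the 11 markers together.

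On the scale per marker UMI, 97.6% of all genes were called higher in the infarct zone, so the calls of 5 members there (edgeR log2 fold changes 1.14 to 3.72) say little about the members. Myh6 was among the 0.296% called lower, at 139, 87.8 and 78.4 UMIs per 1000 marker UMIs (log2 fold change -0.54 ± 0.23, edgeR adjusted p = 0.0215). Its value at 3 dpi was close to the 140.0 of the control and its values at 5 dpi were well under it. The call was lost without section F (edgeR adjusted p = 0.1525) or section M (0.252), and with all sections at the low limit of 0.6667 (-0.34, edgeR adjusted p = 0.0861).

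**Figure D4:**
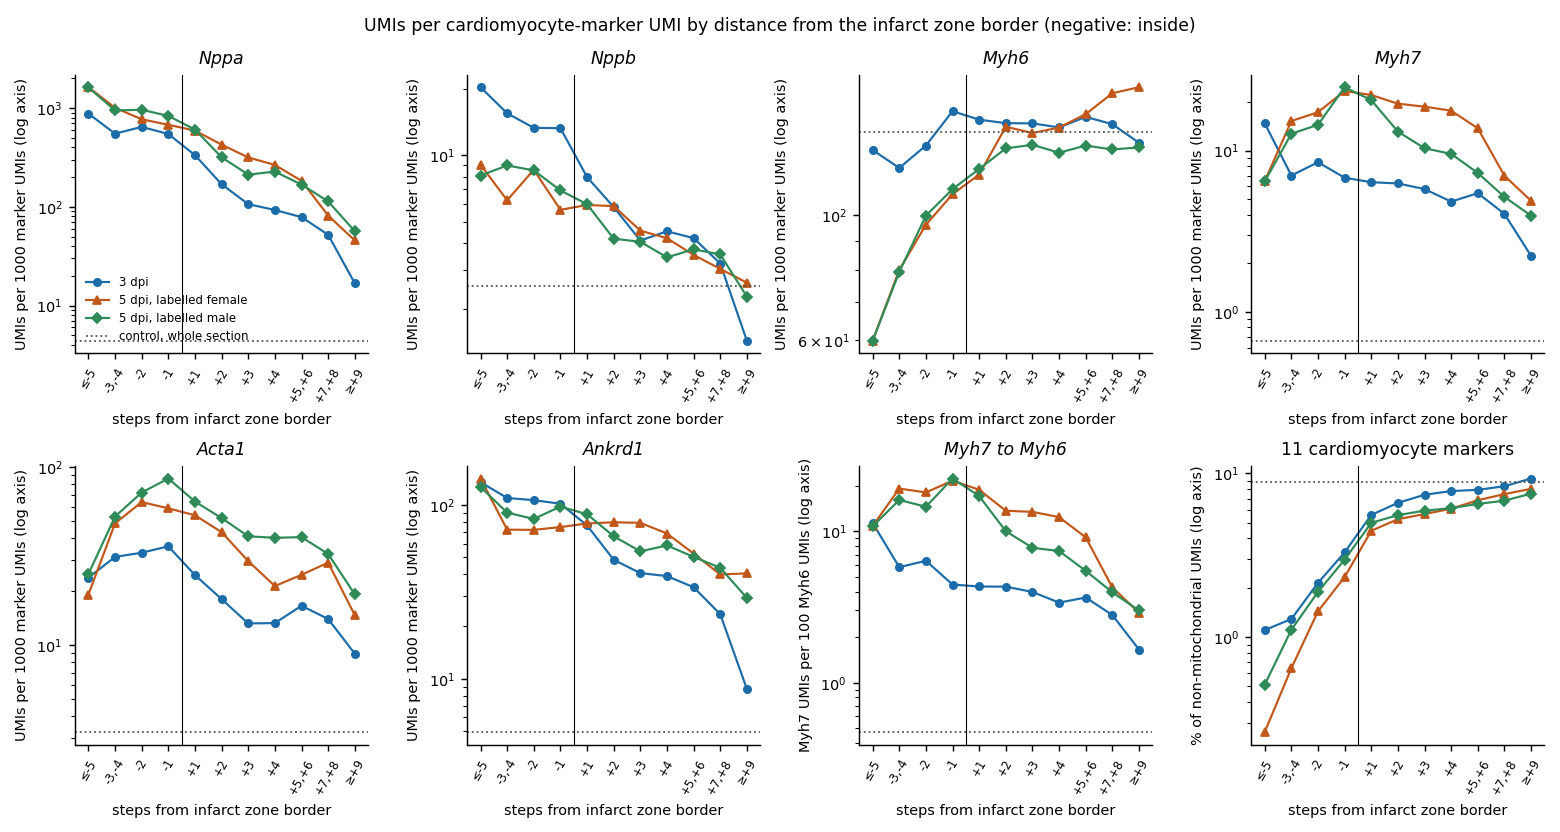
UMIs per 1000 cardiomyocyte-marker UMIs of each member (log axes) by steps from the border of the infarct zone, with the number of Myh7 UMIs per 100 Myh6 UMIs and the share of the 11 markers, 1 line per infarcted section and a dotted line at the control. Nppa climbs from 16.8, 45.7 and 56.6 at 9 or more steps outside to 880, 1629 and 1623 at 5 or more steps inside, and Myh6 is lowest there in F and M, at 59.8 in both.

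The number of Myh7 UMIs per 100 Myh6 UMIs was higher nearer the infarct zone in each infarcted section. The control had 0.473 (95% exact binomial interval 0.412 to 0.5395). At 3 dpi the ratio was 2.58 in the remote zone, 3.68 in border zone 1, 4.32 in border zone 2 and 6.38 in the infarct zone. In F it was 5.28, 12.9, 16.5 and 18.4, and in M 3.55, 7.59, 13.8 and 15.7. Every zone of every infarcted section was above the control, and in all 3 sections the order of the zone sums was remote zone, border zone 1, border zone 2, infarct zone. By steps the order did not hold inside the infarct zone. The ratio was 18.8 and 17.1 on the first ring outside in F and M, 21.6 and 22.3 on the first ring inside, and 10.8 in both at 5 or more steps inside. At 3 dpi it was 4.32 on the first ring outside and then 4.45, 6.39, 5.79 and 11.35 at 1, 2, 3 to 4, and 5 or more steps inside. Over the 3 sections the log2 ratio of border zone 2 to the remote zone was 1.45 ± 0.63 (SD, n = 3), positive in 3 of 3, with a two-sided exact sign permutation p of 0.25, which is the smallest that 3 sections allow. Both genes are near-identical neighbours, so reads in shared sequence could be counted for either or for neither, and the ratio is one of counted UMIs.

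The natriuretic peptides shifted against each other along the same axis. The number of Nppb UMIs per 100 Nppa UMIs was 6.14, 4.32, 2.62 and 2.38 from the remote to the infarct zone at 3 dpi. In F it was 2.97, 1.51, 1.12 and 0.709, and in M 3.26, 1.70, 1.08 and 0.618, against 57.8 in the control. In all 3 sections it was highest in the remote zone and lowest in the infarct zone. This ratio has no test of its own here.

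In the number of Myh7 UMIs per 100 Myh6 UMIs, the section at 3 dpi stood below both at 5 dpi in all 4 zones. In border zone 2 the Myh7 CPM of both 5 dpi sections was at least 2-fold above that at 3 dpi, as it was for 1.10% of 3184 genes and for no other member. With the effect of the zone allowed to differ by day, the log2 fold change of Myh7 between border zone 2 and the remote zone differed by -0.80 ± 0.27 (3 dpi minus 5 dpi, edgeR adjusted p = 0.491). No member passed this test in border zone 2, with 0.0634% of the genes called in either direction.

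In the infarct zone the 3 dpi section stood apart from F and M. With this test, which assumes that hearts at 3 dpi vary as the other sums do, the log2 fold change of the infarct zone against the remote zone was higher at 3 dpi than at 5 dpi for all 6 members, with edgeR adjusted p-values from 2.00e-08 for Myh6 to 0.00103 for Myh7, and 2.62% of the genes were called in this direction. Ankrd1 shows it plainly: its infarct zone had 2066 CPM at 3 dpi against 570.9 and 855.7 at 5 dpi, while the remote zones had 1708, 3321 and 2523. Nppb had 281.3 CPM in the infarct zone at 3 dpi, 1.21-fold of its remote zone, against 43.9 and 61.2 CPM at 5 dpi, 0.193-fold and 0.311-fold. The marker genes moved the same way, at 1.86% of the UMIs at 3 dpi and under 1% at 5 dpi. Per marker UMI the difference was called for Ankrd1 (log2 1.10 ± 0.31, edgeR adjusted p = 0.00471), Nppb (1.08 ± 0.30, edgeR adjusted p = 0.00418) and Myh6 (0.79 ± 0.30, edgeR adjusted p = 0.0277), where 0.243% of the genes were called in this direction and 5167 of 9450 in the other. By size alone, infarct zone CPM at 3 dpi was at least 2-fold above both 5 dpi sections for the same 3 members and for 2.78% of 3380 genes. The day and the single heart at 3 dpi cannot be told apart.

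Depth in the wall was a second axis, and it was there without an infarct. In the control section Nppa had 114.8 CPM 1 or 2 steps from the outer tissue edge, 164.5 at 3 to 5 steps, 323.5 at 6 to 8 steps and 1135 at 9 steps or more. Acta1 ran the other way, with 451.6, 285.3, 213.4 and 152.0 CPM. The innermost group was thus 9.88-fold above the edge for Nppa (95% counting interval 8.15 to 12.1) and 0.337-fold of it for Acta1 (0.273 to 0.412), while the share of the marker genes was nearly flat, at 8.70% to 9.14%. Ankrd1 was 0.615-fold (0.532 to 0.711) and Myh7 1.70-fold (1.16 to 2.49) of the edge. Nppb and Myh6 varied little, at 1.07-fold and 1.08-fold. The 5 atrial markers together had 1, 9, 6 and 11 UMIs in these groups from the edge inward, lowest at the edge and highest innermost.

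**Figure D5:**
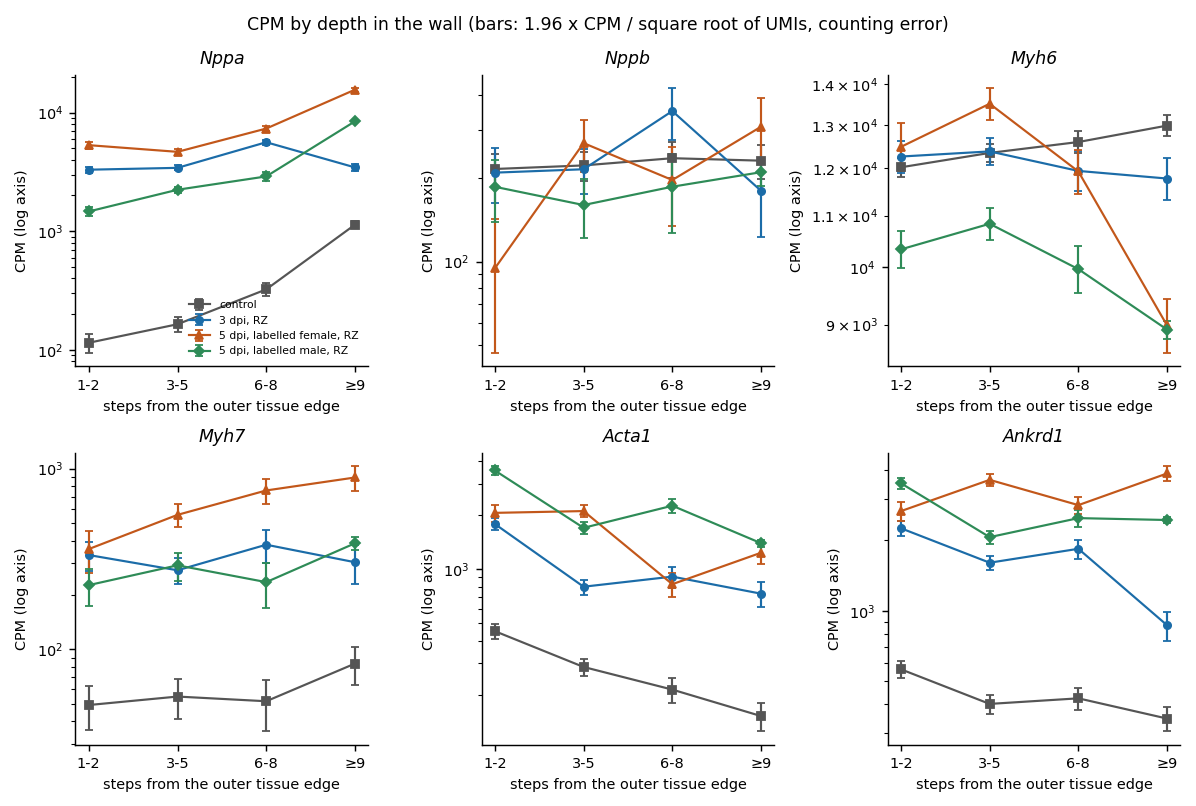
CPM (log axis) by steps from the outer tissue edge in the whole control section and in the remote zone of the 3 infarcted sections, with bars for the 95% counting error. In the control Nppa goes from 114.8 to 1135 CPM inward and Acta1 from 451.6 to 152.0.

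In the remote zones Acta1 was lower inside than at the edge in all 3 infarcted sections, at 0.409-fold, 0.5995-fold and 0.393-fold. Ankrd1 was 0.385-fold, 1.45-fold and 0.696-fold, so that F went against the control. Nppb was 0.860-fold, 3.25-fold (95% counting interval 1.81 to 6.205) and 1.13-fold, Myh7 0.913-fold, 2.49-fold and 1.70-fold, and Myh6 0.960-fold, 0.720-fold and 0.863-fold. For Nppa the inner spots were 1.05-fold of the edge at 3 dpi and 2.93-fold and 5.75-fold in F and M. These inner spots also lay nearer the infarct zone than the edge spots, at a median of 6 against 10 steps at 3 dpi, 5 against 9 in F and 9 against 14 in M, and the part of that was not tested. Only F and M had areas not marked as tissue that the tissue enclosed, of 781 and 666 spots, and 243 of those in M hold UMIs in the matrix. Within 2 steps of such an area, outside the infarct zone, Nppa had 46154 CPM (23 spots) in F and 18101 (160 spots) in M. At 9 steps or more from it there were 11029 and 8882 CPM. In F the spots lining the area also lay nearer the infarct zone, at a median of 3 steps against 5, and the part of that was not tested. In M they lay farther from it, at a median of 9 steps against 4.

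Inside the infarct zone of F and M the spots lining such an area also had more Nppa than those next to them. Within 2 steps of it Nppa had 14636 CPM in F and 20274 in M, against 3512 and 3312 CPM at 3 to 5 steps, and 4908 and 19848 (26 spots in M) at 9 steps or more. The marker genes also took more of the UMIs there, 0.822% and 0.985% against 0.284% and 0.358%, and 1.15% and 3.12% at 9 steps or more. Ankrd1 had 1120 and 1388 CPM there against 314.5 and 347.5, and 674.5 and 1907 at 9 steps or more, so that in M it was highest farthest from the area. Acta1 was 125.1 and 269.4 CPM against 71.9 and 136.3 and was highest at 9 steps or more, at 881.0 and 4288.

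Single spots differed between the control and the infarcted sections in the same genes. Thinned to 1534 non-mitochondrial UMIs, 26.6% of the control's spots held a UMI of Nppa (95% exact binomial interval 23.9 to 29.4), against 96.0%, 85.5% and 85.2% at 3 dpi, in F and in M. For Myh7 the shares were 8.44% in the control and 27.9%, 25.4% and 23.7%, and for Nppb 30.6% in the control and 33.2%, 13.4% and 16.4%. Between 28 and 226 shallower spots per section were left out, and without thinning Nppa was found in 36.0% of the control's spots and in 94.8% to 98.85% of the others. These are shares of spots with a UMI and not of cells, and 79.1% to 98.0% of the infarct zone spots also held one of Nppa. The median spot in the control had 0 Nppa CPM and a spot at its 90th percentile 1091, whereas in border zone 2 the medians were 14143, 22859 and 15749 CPM.

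Across thinned spots outside the infarct zone, Nppa went with Ankrd1 (Spearman's rho 0.62 at 3 dpi over 682 spots, 0.24 in F over 430 and 0.54 in M over 714). Nppa went against Myh6, at -0.45, -0.60 and -0.48. Its rho with Myh7 was 0.13, 0.41 and 0.44. In the control section all pairs of members lay between -0.08 and 0.11 (1030 spots). Spots of a section share a library, and most members have few UMIs per spot, which lowers these values.

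Over the control section and the 12 zone sums (13 points, 4082 genes at 50 CPM or more in one of them), the genes most like each member by Pearson's r of log2(CPM + 1) were as follows. Nppa was nearest to Clu, a secreted chaperone (r = 0.949), Pfkp (0.945) and Cilp (0.938). Nppb was nearest to Xirp1, an actin-binding protein of the intercalated disc (0.974), Popdc2 (0.924) and Dmpk (0.922), and its r with Nppa was 0.153. Myh6 was nearest to Myl2 (0.997), Myl3 (0.997), both ventricular light chains used in the zone rule, and Pgam2 (0.997). Acta1 had Myh7 as its nearest gene (0.934), followed by Nmrk2 (0.928) and Pfkl (0.927). Myh7 was nearest to Prkar1a (0.956), Myl1 (0.943) and Nmrk2 (0.935), and Ankrd1 to Flnc, a filamin of the Z-disc (0.962), Prkar1a (0.959) and Nmrk2 (0.9555). The points share sections and their order along the infarct, so these values describe likeness only.

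Of the genes around the program, the natriuretic peptide pathway gave no call in border zone 2. Over all genes 4.29% were called higher there and 5.11% lower, which are the background for the counts of each list. Of 11 listed genes, among them the receptors Npr1 to Npr3 and the pro-peptide protease Corin, 7 were tested and none passed, with a median log2 fold change of 0.09 against 0.01 over all genes. Of 11 tested genes of other myosins and fetal sarcomere isoforms, 2 rose, the tropomyosin Tpm2 (log2 fold change 0.80, edgeR adjusted p = 0.00925) and the non-muscle myosin Myh9 (0.53, edgeR adjusted p = 0.0415), and 1 fell, the smooth muscle myosin Myh11 (-1.33, edgeR adjusted p = 0.0213). The median of this list was -0.15. None of the 4 other actins tested passed (median 0.30). Of 7 Ankrd1 relatives and Z-disc partners 1 fell, Myoz2 (-0.86, edgeR adjusted p = 0.0120), with a median of -0.49.

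Among 17 transcription regulators tied to the program none rose and 2 fell, Hopx (-1.36, edgeR adjusted p = 0.000334) and Myocd, a coactivator of serum response factor (-1.82, edgeR adjusted p = 0.04895), with a median of -0.24. Of 14 cardiomyocyte stress genes 6 rose and none fell, led by Sprr1a (2.61, edgeR adjusted p = 2.94e-07), the cytokine Gdf15 (1.87, edgeR adjusted p = 0.000191), Clu (1.73, edgeR adjusted p = 1.06e-05) and the matrix protein Ccn2 (1.10, edgeR adjusted p = 0.000252), with a median of 0.61. This list, like the others, was chosen with earlier results of these data known, so its count is no independent support. The part of other cells in these changes was not tested. Of 9 adult cardiomyocyte genes 4 fell and none rose: the potassium channel genes Kcnd2 (-1.67, edgeR adjusted p = 0.0161) and Kcnip2 (-1.498, edgeR adjusted p = 0.000859), the glucose transporter Slc2a4 (-0.83, edgeR adjusted p = 0.0114) and the calcium pump Atp2a2 (-0.79, edgeR adjusted p = 0.00877), with a median of -0.79. Per marker UMI, where 24.2% of all genes were called higher, all 14 stress genes and 1 of the 9 adult genes were, with medians of 1.32 and -0.07 against 0.74 over all genes. On that scale the other lists had 1 of 7 natriuretic pathway genes, 4 of 11 myosins and fetal isoforms, all 4 other actins (median 1.03), none of the 7 Ankrd1 relatives and 2 of 17 regulators called higher, the regulators being Rest and Yap1, and none called lower.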

How the data were processed

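UMI counts per gene and spot were deposited as 1 matrix per section. The authors made these counts with Space Ranger from Visium libraries. The build is mm10 per the labels, while the study's methods name an Ensembl-based reference with GFP added. Spots under tissue with at least 500 UMIs, 250 genes and at most 50% mitochondrial UMIs were kept (1146 to 1741 of 1175 to 1825 per section). CPM were computed over the non-mitochondrial genes. Zone sums of the 3 infarcted sections were tested with edgeR 4.0.16 (quasi-likelihood, section as block, TMM scaling, filterByExpr, Benjamini-Hochberg over all genes tested, threshold 0.05), again with the log of the summed marker UMIs as offset, and again with a zone by day term, which was added after the data were seen. DESeq2 1.42.0 was an alternative. The members and lists were chosen with earlier results of these data known. Nearest genes were the 3 of highest r, and listed genes are named where they passed, at most 4 a list by size of change. Tests were tried on simulated data. Wall positions within the remote and infarct zones were also added later. Intervals are exact Poisson or binomial ones at 95% and cover counting error only. Doublets do not apply to spots, and no cell types were estimated.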

Additional observations from a re-analysis of the deposited data

Results flagged for a closer look

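The change from the remote zone to the infarct zone in the 3 dpi section differed from that in F and M by a test of the difference itself, for all 6 members. The log2 difference, 3 dpi minus 5 dpi, was 1.41 for Nppa, 2.28 for Nppb, 2.003 for Myh6, 1.34 for Myh7, 1.56 for Acta1 and 2.30 for Ankrd1 in edgeR's quasi-likelihood test with TMM scaling. With marker UMIs as the offset it was 1.08 for Nppb, 0.79 for Myh6 and 1.10 for Ankrd1, and the values of 0.21 for Nppa, 0.13 for Myh7 and 0.35 for Acta1 did not pass. The 3 dpi side is 1 heart, so the test assumes that such hearts vary as the other sums do, and the day and the heart cannot be told apart.

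The 623 spots of section M that the deposited mask leaves outside the tissue hold UMIs of members above the control section's level. Nppa had 9010 CPM there (95% counting interval 8886 to 9136), Ankrd1 953.8 and Acta1 331.1, against 390.2, 438.0 and 288.6 in the control. Their median was 2539 UMIs per spot against 6532 in the kept spots of that section, the cardiomyocyte markers took 1.53% of the UMIs, and 243 of them lay in the areas that the tissue encloses. Nppb and Myh6, at 70.4 and 1598 CPM, were below the 225.5 and 12440 of the control. Myh7 had 74.9 CPM (64.0 to 87.2) against 58.8 (51.3 to 67.1), with overlapping counting intervals. Per 1000 marker UMIs, Nppb had 4.60 and Myh7 4.89 UMIs there, against 2.54 and 0.662 in the control. On that scale Myh6 had 104 against 140.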

How the results depend on the processing

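Of 396 recomputed log2 fold changes of the members, 337 kept their direction and their side of the threshold, 33 passed it newly, 11 no longer passed it and 15 changed sign. Nppa in border zone 2 passed in every alternative run (log2 fold change 1.72 to 1.92 with a section left out). Acta1 in border zone 1, near 0 as reported, was 0.099 with all low spots, 0.019 with all tissue spots, 0.14 with border zone 2 of 1 step, 0.061 and 0.18 with the low limit at 0.3333 and 0.6667, 0.093 without scaling, 0.035 without the section block, 0.077 with the remote zone from step 7, and -0.21 to 0.10 with a section left out. With the limit at 0.3333, Acta1 was -0.12 in border zone 2, Nppb -0.0013 in border zone 1 and Nppa -0.57 in the infarct zone. With a section left out, Nppa in the infarct zone ranged from -0.15 without the 3 dpi section to 0.77 without F. Over all alternatives its highest value was 1.497 at the limit of 0.6667, and it was called higher in 6, among them 0.78 without scaling and 0.85 with the remote zone from step 7. Myh6 per marker UMI in border zone 1 ranged from -0.10 to 0.0090 with a section left out. Per marker UMI the fold over the control was 1.02 for Myh6 at 3 dpi and 1.98 and 1.496 for Nppb in F and M. The cause of these changes was not tested.

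The number of genes called in border zone 1, 6 as reported, was 16 without scaling, 87 with DESeq2, 118 without the filter, 0 without the section block, 54 and 0 at the lower and higher limit, 66 with border zone 2 of 1 step, 83 with the remote zone from step 7, 13 with all tissue spots and 0 to 112 with a section left out. In border zone 2, 889 as reported, it was 52 without the block, 1506 and 449 at the lower and higher limit and 152 to 794 with a section left out. Per marker UMI it was 16 in border zone 1, against 10 at the higher limit, 9 with all low spots, 76 with border zone 2 of 1 step, 122 with the remote zone from step 7 and 0 to 427 with a section left out. In border zone 2 it was 2294, against 5354 and 712 at the lower and higher limit and 40 to 3671 with a section left out. Whole-section Myh7 per 100 Myh6 as a mean over spots was 3.73 at 3 dpi, 10.04 in F and 5.33 in M, and 10.5 in F with all tissue spots. Zones were paired by the section block of the reported fit. For the days, no paired analysis was possible because the groups share fewer than 2 replicate numbers. Nppb and Myh7, with 841 to 2516 and 220 to 2454 UMIs per section, are the members most limited by depth.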
